A study of Homo sapiens with 12 samples.

Results

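The 4 control libraries of a BRG1 knockdown experiment in LNCaP cells were examined on their own, as 2 libraries collected at 72 h against 2 collected at 144 h. Their labels, and no measured value, define them, and they make up 4 of the 12 RNA-seq libraries of the series. The other 8 libraries came from cells given 1 of 2 siRNAs against SMARCA4, the gene that encodes BRG1, at the same time points and in duplicate. LNCaP is an established human prostate cancer cell line (ATCC CRL-1740) derived from a lymph node metastasis, and it was grown in a customised T-medium with foetal bovine serum. The control cells carried the non-targeting siRNA pool (si-NT) delivered with DharmaFECT 2, so none of the 4 libraries came from untransfected cells. Cells for the 144 h libraries had been lifted and divided at 72 h, and the replated cells received si-NT again by reverse transfection, 72 h before RNA was taken. Time in culture, replating and a second transfection therefore cannot be told apart in this comparison. Poly(A)-selected, strand-specific libraries were made from total RNA to which ERCC synthetic transcripts had been added. Nothing in the labels says whether the replicates were separate cultures, so the spread between libraries may be technical. The p-values below rest on the spread within groups over all 12 libraries, and each group of depleted cells holds both SMARCA4 siRNAs.

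LNCaP cells keep many features of the luminal cells that line the prostate gland. Androgen signalling works there with transcription factors such as FOXA1 and HOXB13 and drives secreted kallikreins such as KLK3, the gene for prostate-specific antigen. Cultured cells also carry stress programmes that respond to nutrient supply and crowding. When amino acids run short or misfolded protein builds up in the endoplasmic reticulum, translation slows and the transcription factor ATF4 induces genes for amino acid synthesis and transport, while chaperone genes of the reticulum respond to ATF6 and XBP1.

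The deposited values are TPM, a measure of transcript abundance corrected for gene length in which every library is scaled to the same total. They keep no record of sequencing depth, so the depth is unknown and no counting interval can be given. In bulk RNA of this kind, fewer cells of a type and less RNA per cell cannot be told apart. Of 63568 genes in the table, 13930 reached 1 TPM in all 4 si-NT libraries and 34013 were listed at 0 in all 4. Between 8505 and 8646 genes a library reached 10 TPM, and between 1344 and 1418 reached 100 TPM. ERCC transcripts took 1.03%, 1.10%, 0.805% and 1.34% of TPM in 72 h replicate 1, 72 h replicate 2, 144 h replicate 1 and 144 h replicate 2, and values are given in that order below unless stated. SMARCA4 stood at 97.0, 73.4, 94.5 and 107 TPM, whereas the cells with SMARCA4 siRNA averaged 19.3 ± 1.75 TPM at 72 h and 15.2 ± 2.63 TPM at 144 h (SD over 4 libraries each).

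A small set of genes dominated the control transcriptome. The 10 most abundant genes took 11.95%, 13.15%, 12.82% and 11.9% of gene TPM. Of the 20 most abundant, 12 were encoded by the mitochondrial genome, 5 were genes for cytosolic ribosomal proteins, and the others were EEF1A1, GAPDH and RPL41P1. MT-CO3, a subunit of cytochrome c oxidase, led with 17339, 18505, 18632 and 18312 TPM. MT-CO2 and MT-ATP8 followed at means of 17640 ± 1165 and 17620 ± 1404 TPM (SD, n = 4), and these 3 genes did not differ beyond their spread over libraries. MT-ATP8 and MT-ND4L overlap their neighbours MT-ATP6 and MT-ND4 on the mitochondrial genome, so reads could be shared between them.

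The most abundant nuclear gene was EEF1A1, the elongation factor that brings transfer RNAs to the ribosome, with 8660, 9772, 8946 and 8529 TPM. RPS2 and RPS27, both of the small ribosomal subunit, were the next nuclear genes, with means of 6752 ± 399 and 6614 ± 447 TPM (SD, n = 4), which did not differ beyond their spread. GAPDH, a glycolytic enzyme, measured 4876, 5406, 4740 and 4202 TPM. RPL41P1 is annotated as a pseudogene of RPL41, and its 4226 to 5312 TPM may include reads of its parent gene. The 15 mitochondrially encoded genes together took 12.9% to 14.3% of gene TPM and the 78 ribosomal protein genes 18.7% to 20.0%. At 144 h both libraries lay below both at 72 h for GAPDH, RPL41P1 and 13 of the 78 ribosomal protein genes, an order that 17.6% of all tested genes had. None of the 15 mitochondrially encoded and 78 ribosomal protein genes had an unadjusted p under 0.05 in limma, and the median log2 difference was -0.03 over each list.

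All 13 luminal markers were detected at both time points, at 2.51 TPM or more in every si-NT library. KLK3 measured 582, 442, 841 and 397 TPM, so the 2 libraries at 144 h held both the highest and the lowest value. FOLH1, the gene for prostate-specific membrane antigen, stood at 428, 594, 465 and 445 TPM. Mean levels ran from KLK3 (566 ± 200 TPM, SD, n = 4) through FOLH1 (483 ± 75.2 TPM), KRT18 (357 ± 15.4 TPM), KRT8 (306 ± 1.87 TPM) and KLK2 (289 ± 97.4 TPM) to KLK4 (233 ± 98.4 TPM). KLK3 and FOLH1 did not differ beyond their spread, nor did KRT8, KLK2 and KLK4, whereas KRT18 lay above KRT8 in every library. KRT8 and KRT18, the paired keratins of simple epithelia, had the smallest SDs of these 6 genes. ACP3, the prostatic acid phosphatase, and TRPM8, an androgen-responsive cation channel, were low at 4.63 to 8.99 and 2.51 to 4.99 TPM.

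Among transcription factors, FOXA1 measured 171, 183, 184 and 177 TPM and HOXB13 118, 156, 142 and 129 TPM. The values at 144 h lay within those at 72 h for HOXB13 and overlapped them for FOXA1. GATA2, a zinc finger factor, had 88.8 to 103 TPM, SPDEF 81.8 to 101 TPM and GRHL2, an epithelial regulator, 32.2 to 37.9 TPM. The log2 difference of 144 h against 72 h was 0.03 ± 0.14 (SE) for FOXA1 and 0.00 ± 0.18 for HOXB13. Several steroid receptors were near the floor, with PGR at most 0.22 TPM, the glucocorticoid receptor gene NR3C1 at most 0.17 TPM, and ESR1 listed at 0 in 3 of the 4 libraries.

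Markers of other cell types were mostly at or near 0. Basal keratins KRT5 and KRT14 did not exceed 0.25 TPM, TP63, the master regulator of basal cells, was listed at 0 in all 4 libraries, and the summed basal level was 0.49 to 2.98 TPM over 8 genes. S100A2 supplied most of that sum, with 2.56, 2.56, 1.89 and 0.41 TPM. The 9 neuroendocrine markers summed to 2.55 to 4.49 TPM, with CHGA at most 0.04 TPM, INSM1 listed at 0 throughout and SYT4 the highest at 1.93 to 3.83 TPM. The 4 endothelial markers that were matched summed to 0.56 to 0.83 TPM and the 6 leukocyte markers to 0.58 to 0.98 TPM. Of the fibroblast and smooth muscle markers, VIM, which many cultured epithelial lines also express, stood at 77.1, 73.8, 53.7 and 69.9 TPM and COL1A1 at 6.05 to 7.95 TPM, while DCN and COL1A2 were listed at 0.

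**Figure D1:**
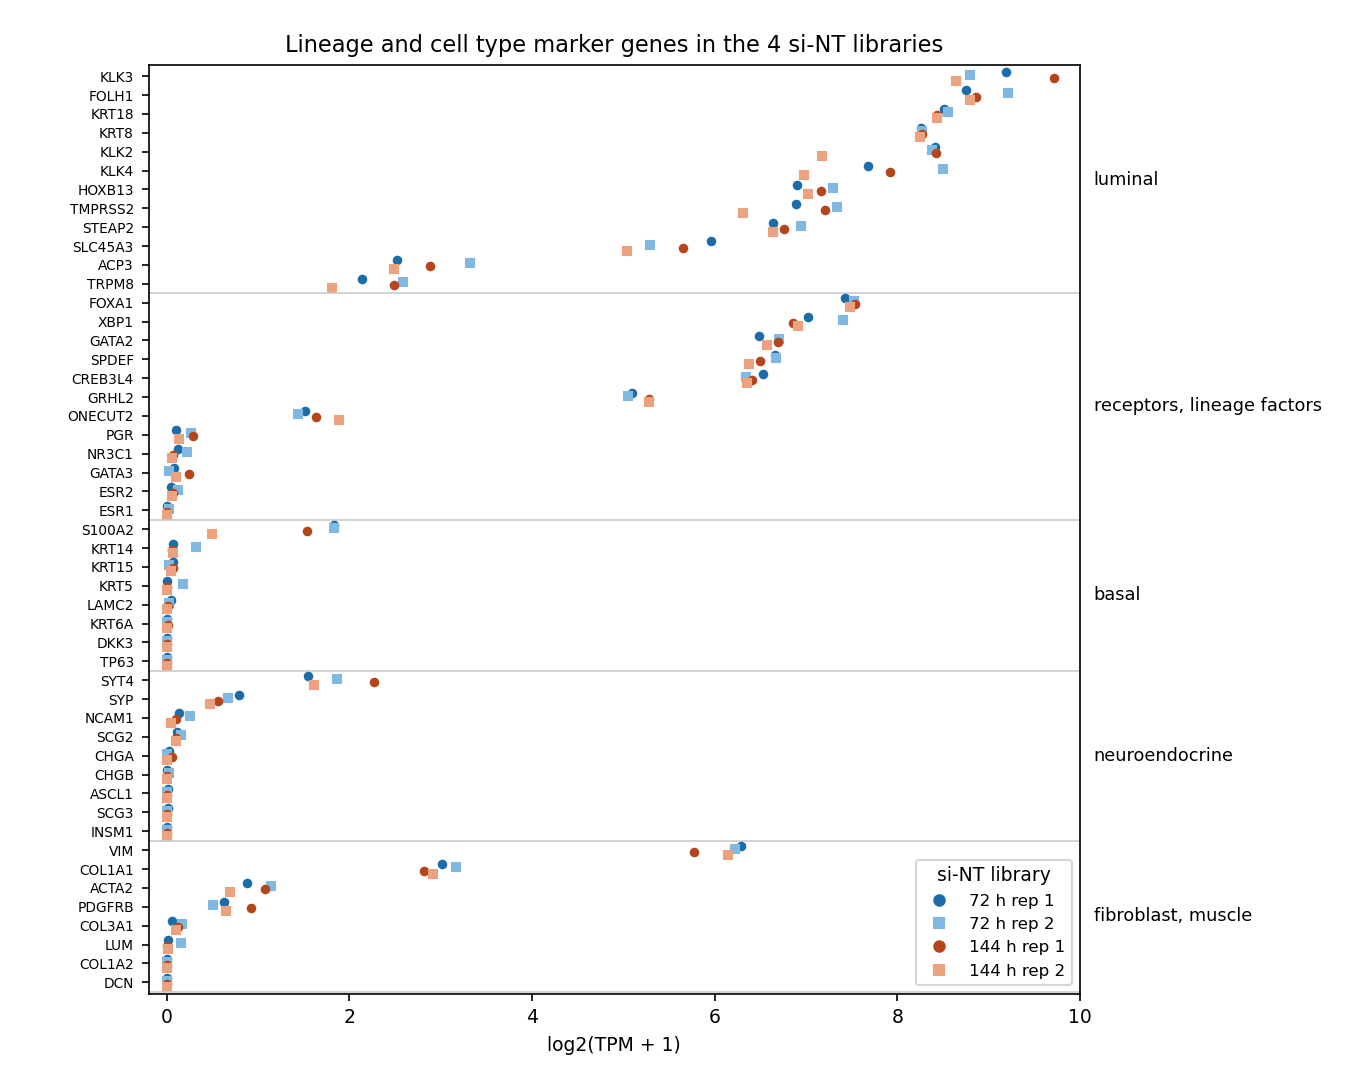
Levels of lineage and cell type marker genes as log2(TPM + 1) in each si-NT library, with circles for replicate 1, squares for replicate 2, blue for 72 h and orange for 144 h. Most luminal genes and FOXA1 and GATA2 lie far to the right of basal and neuroendocrine markers in all 4 libraries. The luminal genes ACP3 and TRPM8 lie nearer to the highest of those markers, SYT4 and S100A2. KLK2, KLK4 and TMPRSS2 are lowest in 144 h replicate 2.

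Differences between replicates were as large as differences between time points. Over the 8602 tested genes with a mean of at least 10 TPM, the SD of the log2 difference was 0.44 between the 2 libraries at 72 h and 0.26 between the 2 at 144 h. The 4 pairs across time points gave 0.28, 0.33, 0.39 and 0.43, and the replicate pairs of BRG1 depleted cells 0.29 to 0.38. Among the si-NT pairs, each one that held 72 h replicate 2 reached at least 0.39, and no other exceeded 0.33. Genes more than 1.5-fold above the other 3 libraries made up 0.372%, 0.953%, 0.105% and 0.163% of the 8602, and genes more than 1.5-fold below them 0.163%, 2.7%, 0.151% and 0.558%. The 72 h replicate 2 library thus stood apart from the rest with 82 genes high and 232 low, and 144 h replicate 2 came next with 14 high and 48 low. Values without 1 or the other of these libraries are given below for the lists and genes that they moved most.

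**Figure D2:**
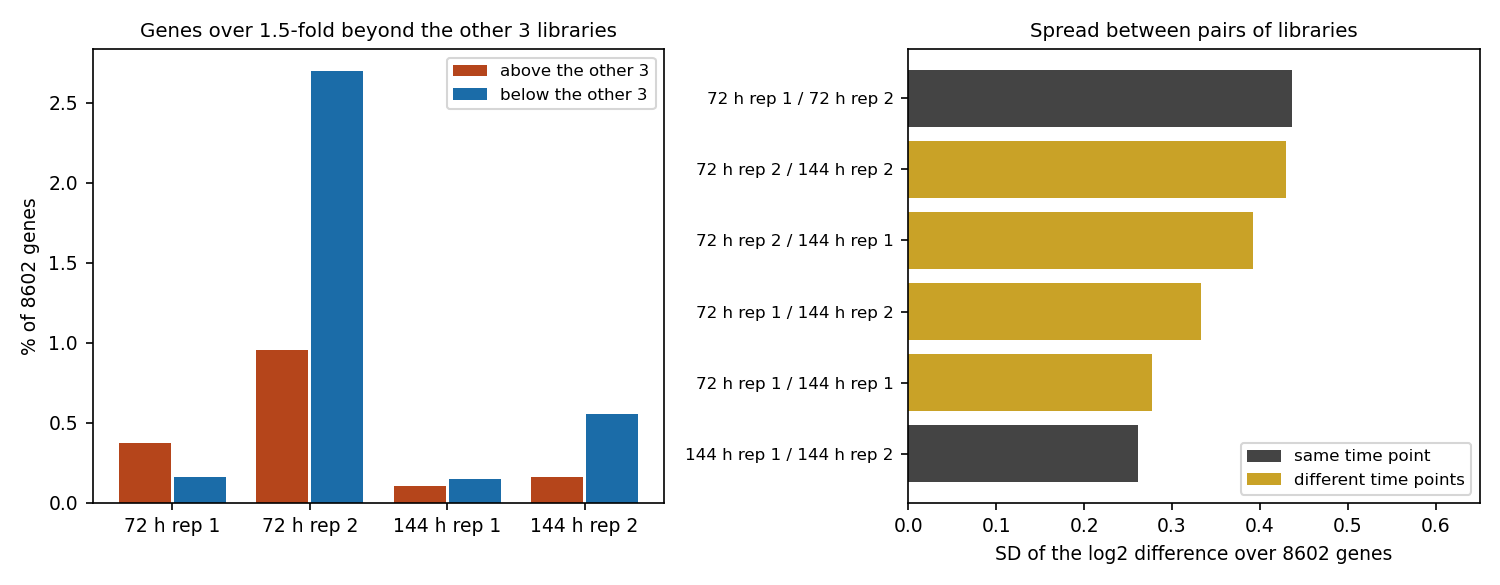
Left, the share of 8602 genes lying over 1.5-fold above (red) or below (blue) the other 3 si-NT libraries, and right, the SD of the log2 difference over the same genes for each pair of libraries. The 72 h replicate 2 library has the tallest bars, 2.7% low and 0.953% high, and its pair with 72 h replicate 1 has the widest spread, 0.44.

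Proliferation genes were low and genes of protein folding in the endoplasmic reticulum high in 72 h replicate 2. All 37 tested genes of replication licensing and S phase had their lowest value there, as did all 30 G2/M genes, while 34.6% of all tested genes did. CDK1, the kinase that drives entry into mitosis, measured 330, 131, 301 and 390 TPM. RRM2, a subunit of ribonucleotide reductase, measured 88.6, 45.6, 92.1 and 114 TPM, and CCNA2, a cyclin of S and G2 phases, 31.5, 15.2, 31.9 and 39.1 TPM. In each of these 3 genes 72 h replicate 1 lay within or close to the values at 144 h. Among the 34 S phase genes with a mean of at least 10 TPM, 24 were more than 1.5-fold below every other library in 72 h replicate 2. So were 17 of 29 G2/M genes, and 2.7% of all 8602 genes at that level.

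All 24 genes of the endoplasmic reticulum list were highest in 72 h replicate 2, against 37.4% of all tested genes. HSPA5, the main chaperone of the reticulum, measured 216, 547, 214 and 272 TPM. HERPUD1, which acts in the disposal of misfolded proteins, measured 73.6, 245, 62.4 and 65.7 TPM, and DNAJB9, a co-chaperone, 7.70, 20.5, 7.64 and 8.71 TPM. The other 3 libraries were close together for these genes. XBP1, counted here and among the lineage factors, measured 129, 168, 115 and 119 TPM. Outside the lists, AMACR, a peroxisomal racemase used as a prostate cancer marker, measured 46.1, 162, 74.3 and 72.6 TPM, and TXNIP, a glucose-responsive inhibitor of thioredoxin, 25.1, 1.23, 38.04 and 36.8 TPM (both chosen after their values were seen).

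Several of these promoters hold the letters of known stress elements, shown here because their genes were highest in 1 library. The endoplasmic reticulum stress element (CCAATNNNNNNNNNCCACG, sought on both strands in the 250 bases before each RefSeq start) was found in 0.074% of 35116 promoter windows. Of 23 list members with a window, 7 held it, against 0.0916% of all 27305 genes with a window. The 7 were CALR, CANX, CRELD2, HSP90B1, HSPA5, PDIA6 and XBP1. A shorter form known as ERSE-II, marked in HERPUD1 below, lay in 0.0513% of windows, 0.0659% of genes and 3 list members, HERPUD1, HYOU1 and SDF2L1. The capitals below mark the match, and a match is a description of the letters rather than a measured binding site. The sequences come from RefSeq and were placed on GRCh37, in the gene's own direction, with HSPA5 on the minus strand at chr9:128003665-128003693, CRELD2 on the plus strand at chr22:50312162-50312260 and HERPUD1 on the plus strand at chr16:56965897-56965987.
HSPA5: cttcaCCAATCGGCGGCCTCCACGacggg
CRELD2: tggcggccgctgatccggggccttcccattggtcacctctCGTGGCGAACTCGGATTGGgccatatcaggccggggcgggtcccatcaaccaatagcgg
HERPUD1: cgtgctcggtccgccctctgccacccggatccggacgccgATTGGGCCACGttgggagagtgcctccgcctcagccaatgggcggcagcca

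CRELD2, whose match lies on the opposite strand, measured 35.2, 50.8, 33.2 and 35.8 TPM. In HSPA5 the match begins 66 bases before the RefSeq start, in CRELD2 80 bases and in HERPUD1 117 bases before it. The HSPA5 stretch was shortened because it met an annotated exon of another transcript.

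The 144 h replicate 2 library was low for hypoxia-responsive and several androgen-responsive genes. NDRG1, a stress and differentiation gene induced by hypoxia and by androgen, measured 136, 199, 127 and 25.3 TPM. GDF15, a stress cytokine, measured 373, 573, 365 and 105 TPM, and SLC16A3, the lactate exporter, 17.7, 24.2, 16.7 and 5.87 TPM. Of 35 tested hypoxia and glycolysis genes, 31 were lowest in this library, against 29.9% of all tested genes. Of 32 at 10 TPM or more, 12 lay over 1.5-fold below the others, against 0.558% of all genes at that level. KLK2, a kallikrein like KLK3, measured 339, 333, 341 and 143 TPM, and 20 of 33 androgen response genes were lowest there. At the same time 28 of 37 S phase genes were highest in this library, against 26.3% of all tested genes. UGT2B15, which glucuronidates androgens, ran the other way, at 45.1, 38.2, 37.1 and 75.4 TPM (chosen after its values were seen).

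**Figure D3:**
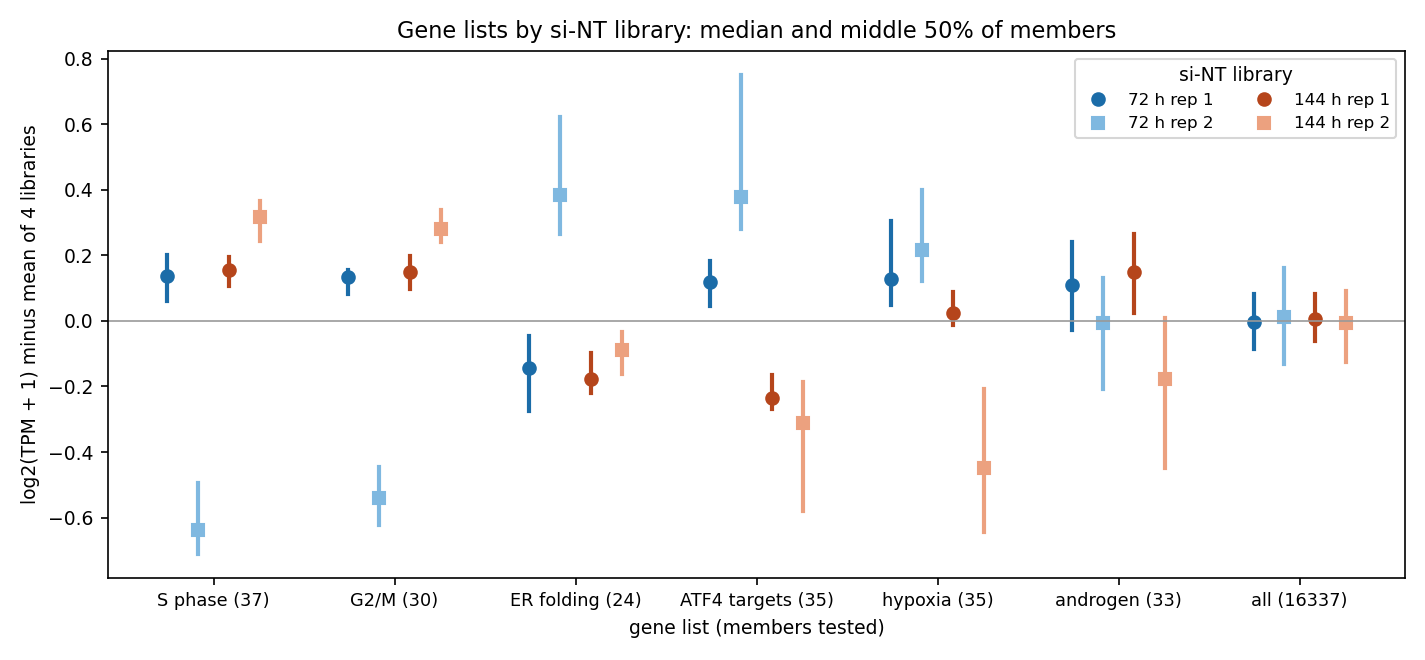
For each gene list, the median (symbol) and middle 50% (line) of its tested members in each si-NT library, as log2(TPM + 1) minus that gene's mean over the 4 libraries, with the number of members in brackets. S phase and G2/M medians are lowest in 72 h replicate 2 (-0.64 and -0.54), the endoplasmic reticulum median is highest there (0.39), the hypoxia median is lowest in 144 h replicate 2 (-0.45), and ATF4 targets are above 0 at 72 h and below 0 at 144 h.

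No gene passed the test of 144 h against 72 h. With limma on log2(TPM + 1) and Benjamini-Hochberg adjustment, 0% of 16337 tested genes had an adjusted p under 0.05, and the smallest adjusted p was 0.0876, for the small nucleolar RNA SNORD67. At an unadjusted p under 0.05, 671 genes were found, 251 higher at 144 h (1.54% of those tested) and 420 lower (2.57%). Both libraries at 144 h lay above both at 72 h for 17.3% of tested genes and below both for 17.6%. The median log2 difference over all tested genes was 0, and the central 95% of differences ran from -0.63 to 0.51. In simulated data of the same size the test recovered 74.5% of 200 genes changed by 1 on the log2 scale. It recovered 99% of 200 genes changed by 2. The changed genes were drawn only from those with a mean log2(TPM + 1) above 2. Noise was independent, with the same spread for a gene in every library, so no library stood apart as 72 h replicate 2 did. In the measured si-NT libraries 220 tested genes, taken at any level, differed by more than 1 on the log2 scale, and 0 had an adjusted p under 0.05 (limma). Whether the simulated recovery holds for the measured libraries was not tested. An exact permutation test of 1 value on 2 against 2 libraries cannot give a two-sided p below 0.333.

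Targets of ATF4 and the amino acid response were lower at 144 h than at 72 h in nearly every case. All 35 tested members had a lower mean at 144 h. Both libraries at 144 h lay below both at 72 h for 34 of them, with AARS1 as the exception, and for 17.6% of all tested genes. At an unadjusted p under 0.05, 26 of the 35 were lower, where 2.57% of all tested genes were. By the same rule 0 were higher, and 0 passed adjustment over all genes. When libraries were scaled to their ERCC transcripts, 6 of the 35 were lower at an unadjusted p under 0.05, as were 127 of all 16337 tested genes. The median log2 difference was -0.53, beside 0 over all tested genes. As 72 h replicate 2 was high for these genes too, the comparison was repeated without it. The median was then -0.41 and 4 members (ASNS, ATF3, FGF21 and GARS1) kept an unadjusted p under 0.05, where 0.998% of tested genes were lower by that rule. Without 144 h replicate 2 the median was -0.50 and 7 members were lower by that rule, where 0.924% of tested genes were.

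ATF4 itself measured 446, 500, 362 and 332 TPM. ASNS, which makes asparagine and lies at chr7:97480989-97501854 on GRCh37, measured 215, 209, 147 and 146 TPM. Its 4 values fell into 2 tight pairs by time point, with a log2 difference of -0.53 ± 0.17 (SE, limma adjusted p = 0.974) and a range of -0.51 to -0.55 when any 1 si-NT library was left out. PSAT1, an enzyme of serine synthesis, was as tight at 303, 300, 232 and 242 TPM (log2 difference -0.35 ± 0.14). ASNS, PSAT1, TRIB3, GARS1 and PHGDH were chosen for the text once their values were known. TRIB3, a pseudokinase that restrains ATF4, measured 54.9, 104, 41.0 and 35.3 TPM. SLC7A11, the cystine importer, measured 13.8, 25.3, 9.72 and 7.91 TPM. PHGDH, the first enzyme of serine synthesis, ran at 500, 535, 413 and 453 TPM.

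The widest log2 differences in the list were those of DDIT3, FGF21, CHAC1, VEGFA and ATF3. DDIT3, the stress factor CHOP (chr12:57910371-57915520), measured 84.6, 292, 60.9 and 47.1 TPM, a log2 difference of -1.54 ± 0.48 (SE, limma adjusted p = 0.974). Without 72 h replicate 2 that difference was -0.65, less than its size with all 4 libraries. CHAC1, which degrades glutathione, measured 20.3, 37.5, 12.7 and 10.9 TPM (-1.17 ± 0.43, and -0.74 without 72 h replicate 2). ATF3, a stress-induced partner of ATF4, measured 36.1, 48.3, 23.8 and 16.5 TPM (-1.04 ± 0.30, and -0.83 without 72 h replicate 2). FGF21, a secreted hormone of nutrient stress, was near the floor at 2.76, 3.34, 0.96 and 0.28 TPM, with a log2 difference of -1.35 ± 0.24 on a scale that understates changes of low genes (limma adjusted p = 0.724, and -1.25 without 72 h replicate 2).

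ASNS, CHAC1, FGF21 and ATF3 hold a core of the amino acid response element in their promoters. The letters TGATGNAA, sought on both strands in the same 250-base windows, were present in 3.14% of 35116 windows and 3.89% of 27305 genes. In the list 7 of 29 members with a window held it, namely AARS1, ASNS, ATF3, CHAC1, FGF21, GARS1 and SLC1A5. AARS1 was also the member that did not separate the time points, at 152, 138, 142 and 134 TPM, while GARS1, another transfer RNA synthetase, did, at 233, 267, 175 and 175 TPM. The 4 stretches below are from RefSeq in the gene's direction, with the match in capitals, and lie on GRCh37 at chr7:97501770-97501799 on the minus strand for ASNS and on the plus strand at chr15:41245449-41245478 for CHAC1, chr19:49258687-49258774 for FGF21 and chr1:212738518-212738605 for ATF3.
ASNS: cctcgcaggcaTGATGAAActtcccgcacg
CHAC1: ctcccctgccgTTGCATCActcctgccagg
FGF21: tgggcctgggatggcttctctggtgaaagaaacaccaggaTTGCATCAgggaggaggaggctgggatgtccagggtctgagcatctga
ATF3: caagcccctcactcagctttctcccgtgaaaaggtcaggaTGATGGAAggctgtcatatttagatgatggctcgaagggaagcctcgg

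Stretches around the ASNS and CHAC1 matches met an annotated exon of another transcript and were shortened, and the ASNS stretch lies inside the gene span given above. The matches of CHAC1 and FGF21 lie on the opposite strand. The 4 matches begin 68, 209, 54 and 191 bases before the RefSeq starts of ASNS, CHAC1, FGF21 and ATF3.

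**Figure D4:**
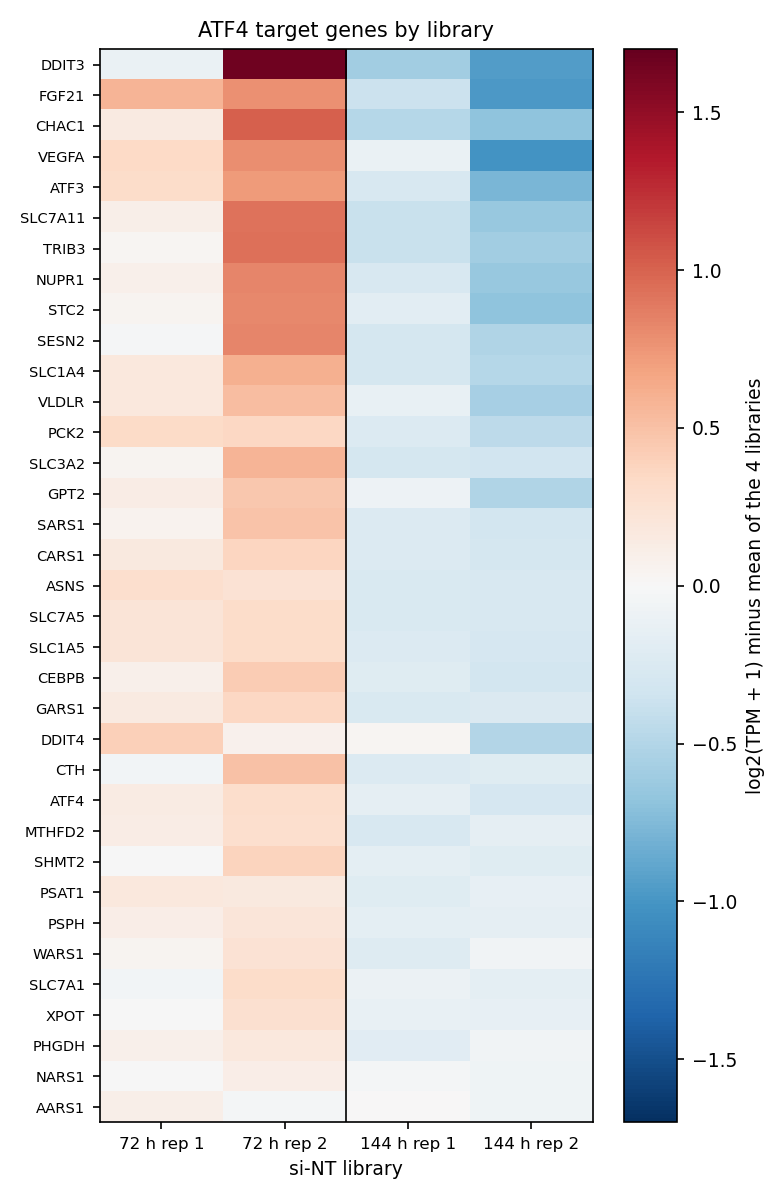
Heat map of the 35 tested ATF4 target genes (rows, ordered by log2 difference) in the 4 si-NT libraries (columns), coloured by log2(TPM + 1) minus the gene's mean over the 4 libraries. The 2 columns at 144 h are mostly blue and the 2 at 72 h mostly red, with the deepest red in 72 h replicate 2 and nearly even colour by time point for ASNS and PSAT1.

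BRG1 depleted cells gave a median of -0.53 for the same 35 genes between 72 h and 144 h. Their libraries do not enter the control means, but both tests use 1 estimate of spread and the cells were replated in the same way. All 35 were again lower at 144 h on average, and 22 had an unadjusted p under 0.05, where 12.2% of all tested genes were lower by that rule. ASNS went from 152 ± 32.5 to 87.1 ± 5.68 TPM (SD, n = 4 each) in those cells, a log2 difference of -0.77 ± 0.12 (SE). ASS1, which makes the arginine precursor argininosuccinate and was chosen once its values were known, measured 88.1, 97.6, 51.8 and 42.8 TPM in control cells (log2 difference -0.96 ± 0.24) and had a log2 difference of -0.85 ± 0.17 in depleted cells.

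Proliferation genes had higher means at 144 h, but this rested on 72 h replicate 2. The median log2 difference was 0.47 over 37 S phase genes and 0.42 over 30 G2/M genes. In these lists 4 and 3 members were higher at an unadjusted p under 0.05, where 1.54% of tested genes were. Without 72 h replicate 2 the medians were 0.10 and 0.08 and 0 members of either list were higher by that rule, where 0.716% of tested genes were. Without 144 h replicate 2 they were 0.38 and 0.37, with 1 and 0 members, where 0.557% of tested genes were. MCM2, a subunit of the replicative helicase, measured 69.9, 49.4, 80.8 and 88.8 TPM and CCNE2, a cyclin of the G1/S boundary, 9.38, 5.12, 11.3 and 11.5 TPM. The other members by that rule were CCNE1 and FEN1 in S phase, and CCNA2, KIF20A and KIF23 in G2/M, with log2 differences of 0.34 to 0.67 that came to 0.16 to 0.24 without 72 h replicate 2. MKI67, the Ki-67 proliferation marker, measured 32.8, 20.1, 33.8 and 32.95 TPM. In BRG1 depleted cells the corresponding medians were -0.27 and -0.38.

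The endoplasmic reticulum list had a median of -0.24, which became 0.00 without 72 h replicate 2, and a median of 0.05 in BRG1 depleted cells. Its 2 members at an unadjusted p under 0.05 were HERPUD1 (-1.06 ± 0.42, and -0.20 without 72 h replicate 2) and HSP90B1, the reticulum form of HSP90, with 504, 675, 456 and 472 TPM (-0.33 ± 0.13, and -0.12 without it). For hypoxia and glycolysis the median was -0.42 over 35 genes. Both 144 h libraries lay below both at 72 h for 24 of these genes and for 17.6% of all tested genes. The median moved to -0.15 without 144 h replicate 2 and to -0.36 without 72 h replicate 2. In BRG1 depleted cells the median of the same list was -0.42. At an unadjusted p under 0.05, 15 of the 35 were lower and 2 higher there, where 12.2% of all tested genes were lower. In si-NT cells CA9, a carbonic anhydrase induced by low oxygen, was the 1 member of this list at an unadjusted p under 0.05. It measured 4.84, 6.99, 3.07 and 0.57 TPM (-1.43 ± 0.60, and -0.75 without 144 h replicate 2). VEGFA, counted in this list and among the ATF4 targets, measured 108, 147, 78.9 and 41.7 TPM (-1.12 ± 0.52, and -0.67 without 144 h replicate 2).

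Smaller lists gave fewer separations. All 4 tested metallothioneins, which bind zinc and copper, had (17.6% of tested genes did) both 144 h libraries below both at 72 h, with MT1X at 141, 180, 126 and 109 TPM, MT2A at 213, 281, 194 and 156 TPM and a median of -0.46. MT1X was the 1 member lower at an unadjusted p under 0.05, where 2.57% of all tested genes were, and the median was -0.28 without 72 h replicate 2. In BRG1 depleted cells the medians were -0.83 for metallothioneins and 0.26 for replication-dependent histone genes. Replication-dependent histone genes had 7 of 12 members in that order and a median of -0.45, which was -0.26 without 72 h replicate 2 and -0.28 without 144 h replicate 2, and their transcripts normally lack the poly(A) tail that the library kit selects. H4C8 measured 13.9, 27.9, 9.02 and 3.78 TPM and H2BC21 5.37, 8.95, 4.89 and 3.18 TPM. These and H2AC6 were the 3 members lower at an unadjusted p under 0.05, and 0 were without either 72 h replicate 2 or 144 h replicate 2. In the heat shock list 3 of 15 members were higher and 1 lower at an unadjusted p under 0.05, where 1.54% and 2.57% of all tested genes were. HSP90AA1, the inducible cytosolic HSP90, measured 1063, 804, 1184 and 1246 TPM (0.39 ± 0.14, and 0.19 without 72 h replicate 2). HSPA4L, a co-chaperone, measured 11.8, 11.4, 15.0 and 15.9 TPM, and DNAJA1 254, 210, 265 and 299 TPM. HSF1, the factor that induces them, was the member that was lower, at 34.9, 36.8, 15.2 and 35.4 TPM, so that only 144 h replicate 1 lay apart.

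Androgen response genes had a median of -0.06 over 33 genes, with 22 lower and 11 higher on average at 144 h. The median was 0.09 without 144 h replicate 2 and -0.25 without 144 h replicate 1. At an unadjusted p under 0.05, 1 was higher and 2 lower, where 1.54% and 2.57% of all tested genes were. TSC22D3, a leucine zipper protein induced by steroids, measured 102, 173, 94.6 and 41.7 TPM (-1.07 ± 0.42, and -0.49 without 144 h replicate 2, -0.69 without 72 h replicate 2). HPGD, which inactivates prostaglandins, measured 4.71, 2.23, 2.19 and 0.79 TPM (-0.85 ± 0.35, and -0.43 without 144 h replicate 2), and PLA2G2A, a secreted phospholipase, 10.9, 15.3, 22.4 and 15.7 TPM. Of the luminal markers 0 of 13 and of the steroid receptors and lineage factors 0 of 8 had an unadjusted p under 0.05. The luminal median was -0.15, with 12 of 13 members lower on average at 144 h, and it was 0.02 without 144 h replicate 2. That library held the lowest value for 11 of the 13, and for 29.9% of all tested genes. The widest luminal differences were KLK4 (-0.64 ± 0.36) and KLK2 (-0.60 ± 0.55), and KLK2 came to 0.02 without 144 h replicate 2.

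Most other lists lay near the median of all genes. Cholesterol and fatty acid synthesis had a median of 0.12 with 0 of 31 members at an unadjusted p under 0.05. By that rule 1.54% of all tested genes were higher and 2.57% lower, which applies to the counts below too. In the cholesterol list 23 members were higher and 8 lower on average at 144 h. For 10 of them both 144 h libraries lay above both at 72 h, as for 17.3% of all tested genes. Medians ran from -0.04 to 0.09 for p53 targets (0 of 26), interferon response (2 of 24), immediate early and AP-1 genes (1 of 19), YAP and TEAD targets (2 of 14), cell junction and adhesion (0 of 30), lysosome and autophagy (1 of 29), cell death and caspases (1 of 28), NRF2 response (2 of 19), insulin and growth factor signalling (1 of 21), SWI/SNF subunits (0 of 27) and the proteasome (1 of 30). The NRF2 pair was HMOX1, which degrades haem, at 19.2, 55.7, 16.6 and 9.20 TPM (-1.34 ± 0.56, and -0.60 without 72 h replicate 2), and SLC7A11 (-1.01 ± 0.35, and -0.60 without it). The interferon pair was IFI27, at 1.59, 2.88, 0.90 and 0.58 TPM, and IFI35, at 1.34, 1.12, 2.14 and 2.19 TPM. Of the single members named here, TFRC, the transferrin receptor, measured 98.2, 77.6, 110 and 120 TPM, PSMD2, a proteasome subunit, 259, 220, 274 and 299 TPM and WIPI1, an autophagy protein, 10.9, 17.2, 10.0 and 8.42 TPM (-0.53 ± 0.20, and -0.22 without 72 h replicate 2). TFRC and PSMD2 came from 0.39 and 0.26 to 0.22 and 0.14 without 72 h replicate 2. Despite the small median, 27 of 30 proteasome genes were higher and 3 lower on average at 144 h. Of the 30, 24 were lowest in 72 h replicate 2 (34.6% of all tested genes) and 25 highest in 144 h replicate 2 (26.3%). AJUBA (12.5, 14.4, 10.0 and 10.7 TPM) and TEAD4 (18.99, 16.6, 21 and 23.4 TPM) made up the YAP and TEAD pair. Of other cell type lists, S100A2 alone among basal markers was tested and had an unadjusted p under 0.05 (-0.82 ± 0.30, and -0.30 without 144 h replicate 2), and 0 of 2 neuroendocrine and 0 of 3 fibroblast markers did.

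**Figure D5:**
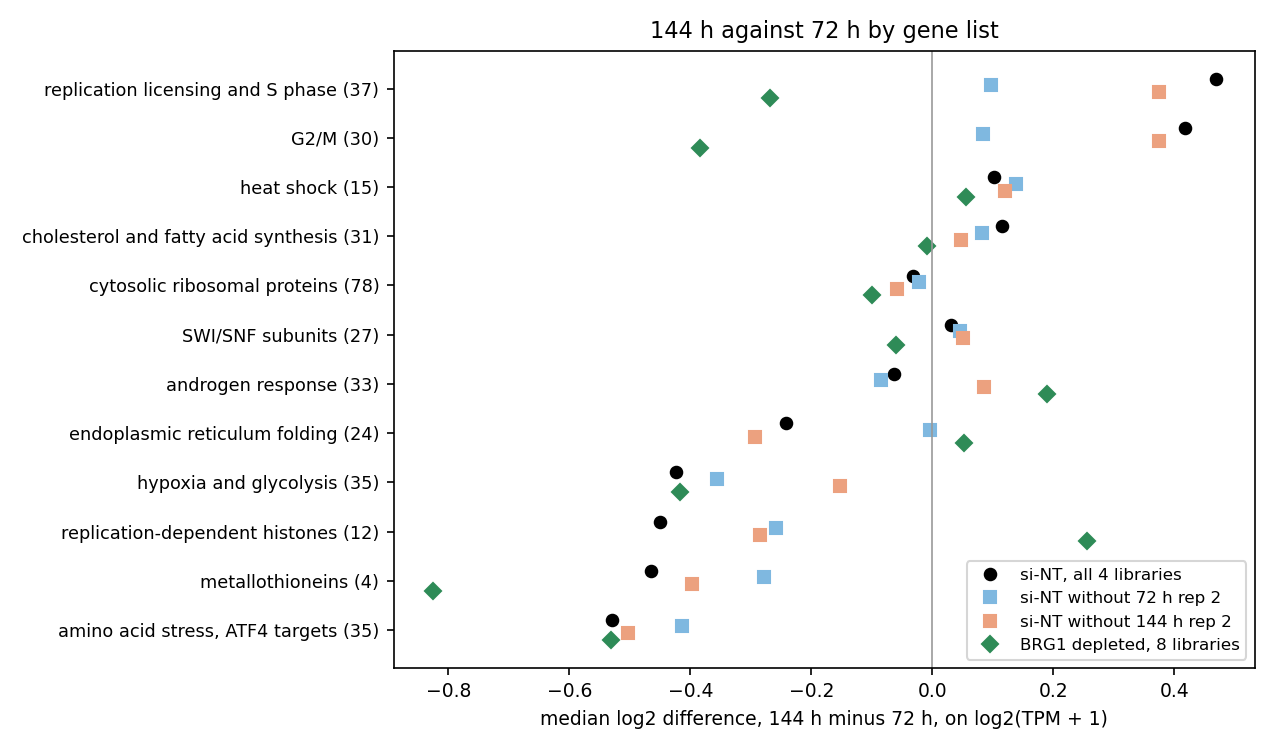
Median log2 difference of 144 h minus 72 h for 12 gene lists (number of tested members in brackets), for the 4 si-NT libraries (black), without 72 h replicate 2 (light blue), without 144 h replicate 2 (light orange) and for the 8 BRG1 depleted libraries (green). ATF4 targets stay between -0.41 and -0.53 in all 4 sets, while S phase and G2/M drop to 0.10 and 0.08 without 72 h replicate 2 and are negative in depleted cells.

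An unadjusted p under 0.05, a mean of at least 5 TPM and time points that did not overlap were combined in 158 genes higher and 214 lower at 144 h, and the 12 with the widest differences each way are described. Of the lower ones not yet described, S100P, a calcium-binding protein found in several cancers (chr4:6695605-6698897), measured 21.2, 23.8, 9.17 and 6.94 TPM, with a log2 difference of -1.39 ± 0.46 (SE, limma adjusted p = 0.974) and -1.31 without 72 h replicate 2. In BRG1 depleted cells S100P had the opposite sign, with means of 10.07 ± 5.38 and 28.3 ± 4.04 TPM (SD, n = 4 each), although the adjusted p of the difference in change was 0.132 (limma). NIBAN1, a stress-induced regulator of translation, measured 6.96, 13.4, 4.72 and 3.15 TPM (-1.13 ± 0.47, and -0.71 without 72 h replicate 2), and the long non-coding LINC02193 14.9, 10.5, 5.29 and 4.63 TPM.

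Among the higher genes were VAV3, a guanine nucleotide exchange factor, with 12.3, 10.7, 16.6 and 25.5 TPM, and LEF1, a nuclear effector of Wnt signalling, with 3.84, 7.81, 8.29 and 13.3 TPM. Their log2 differences were 0.79 ± 0.24 and 0.82 ± 0.31 (SE, limma adjusted p = 0.974 for both), and 0.50 and 0.51 without 144 h replicate 2. LEF1 came to 0.39 without 72 h replicate 1. MAGEA2, a cancer-testis antigen, was listed at 0 in both 72 h libraries and at 21.8 and 14.1 TPM at 144 h. It has near-identical copies on the X chromosome among which reads can be split, so its values are uncertain. PFN2, a profilin that binds actin and was chosen once its values were known, measured 28.3, 25.7, 37.2 and 35.9 TPM, a log2 difference of 0.43 ± 0.09 (SE, limma adjusted p = 0.974), and had 0.43 ± 0.06 in depleted cells.

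The remaining genes were short or unnamed non-coding transcripts, many listed at 0 in a whole group, which poly(A) selection captures poorly. SNORD67 was listed at 0, 0, 8.23 and 15.3 TPM, SNORD83B at 0, 0, 15.3 and 29.4 TPM, MIR621 at 0, 0, 20.9 and 33.3 TPM and 1 Y_RNA locus at 0, 0, 76.7 and 56.2 TPM. The U6atac gene RNU6ATAC was listed at 20.6, 9.06, 2.05 and 0 TPM, with identical values for another entry without a gene symbol, and the 5S pseudogene RNA5SP392 at 12.3, 27.4, 0 and 0.11 TPM. RNU6ATAC35P, at 7.12, 2.45, 23.4 and 12.3 TPM, and 4 entries without a gene symbol made up the rest of the higher set. Small RNAs of this kind also filled most of the genes farthest from the other 3 libraries. RNU5A-1 stood at 339 TPM in 72 h replicate 1 against 13.97 to 36.99 TPM elsewhere, and RNY4 at 0 in 72 h replicate 2 against 41.9 to 375 TPM elsewhere.

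The change between time points differed from that in BRG1 depleted cells for 3 genes, 0.0184% of those tested (limma interaction, adjusted p under 0.05). Of these, SNORD67 kept an adjusted p under 0.05 when any 1 si-NT library was left out (limma, 0.00199 to 0.0074), MEAF6 lost it without 72 h replicate 2 (0.0546) or 144 h replicate 2 (0.0824), and NBL1 lost it without any 1 of the 4 (0.0546 to 0.107). MEAF6, a subunit of histone acetyltransferase complexes (chr1:37955594-37980367), measured 89.1, 92.4, 68.8 and 65.8 TPM in control cells. In depleted cells it went from 171 ± 10.3 to 259 ± 6.08 TPM (SD, n = 4 each), and the difference in change was -1.02 ± 0.11 on the log2 scale (SE, adjusted p = 0.00657). NBL1, a secreted antagonist of bone morphogenetic proteins, measured 1.15, 0.71, 0.72 and 0.53 TPM in control cells and went from 2.24 ± 0.73 to 14.2 ± 2.01 TPM in depleted cells (difference -2.49 ± 0.29, adjusted p = 0.0145). SNORD67 was the other, with a mean of 13.9 ± 8.46 TPM at 72 h and 0 in all depleted libraries at 144 h (adjusted p = 0.000448).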

How the data were processed

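The authors had sequenced 4 si-NT and 8 BRG1 depleted LNCaP RNA libraries. The submitters' processing notes name Trim Galore (0.11.2), FastQC, STAR (2.4.0j) and hg19, and the study's methods name featureCounts with GENCODE annotation. The deposited values are TPM made by the authors; the tool that computed them is not given in the sources used here. Symbols and GRCh37 positions were taken from a later GENCODE release, which gave 55665 of 63568 genes a symbol.

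A filter of 1 TPM or more in 2 or more of the 12 libraries was applied, and genes were tested with limma (3.58.1, R 4.3.3) on log2(TPM + 1), with 1 coefficient for each of 4 groups over all 12 libraries, a trended prior and Benjamini-Hochberg adjustment over 16337 genes. The 92 ERCC transcripts were left out of tests and rankings. The procedure was tested on simulated data. Genes named in the text were the 20 most abundant, the lineage and cell type lists, the 12 largest differences each way (criteria in the text), the 5 genes farthest apart in each library, and up to 4 members a list with an unadjusted p under 0.05. Some genes that this rule names are not reported here. Other genes quoted with values, the 3 interaction genes included, were chosen after their values were seen. The comparison was picked, and all gene lists were chosen, with earlier results of these data known, although labels alone define the 4 libraries. Figures were drawn with Python (3.11.15) and matplotlib (3.10.9).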

Additional observations from a re-analysis of the deposited data

Results flagged for a closer look

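The change from 72 h to 144 h in si-NT cells minus the change in BRG1 depleted cells passed the interaction test (limma, adjusted p under 0.05) for 3 of 16337 genes. It was -2.49 on the log2 scale for NBL1, -1.02 for MEAF6 and 7.35 for SNORD67. For NBL1 and MEAF6 the larger movement was in depleted cells, with log2 differences of 2.25 ± 0.17 and 0.59 ± 0.06 (SE), against -0.24 ± 0.24 and -0.43 ± 0.09 in si-NT cells. SNORD67 was listed at 0 in both si-NT libraries at 72 h and in all 4 depleted libraries at 144 h, so its value depends on the pseudocount and is no bound.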

How the results depend on the processing

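The count of genes at an adjusted p under 0.05 (main value 0) was 2 with a pseudocount of 0.1, 1 with ERCC scaling, 40 with no filter on low values, 1 without the trend, 4 with 6 groups and 0 to 5 when any 1 library was left out. The count higher at 144 h at an unadjusted p under 0.05 (251) was 90 with ERCC scaling, 599 with no filter, 165 with a mean of at least 5 TPM and 91 to 1036 with 1 library left out. The count lower (420) was correspondingly 127, 902, 228 and 151 to 944. The highest counts, 1036 and 944, came without 72 h replicate 1 and the lowest, 91 and 151, without 144 h replicate 2, and leaving out 1 si-NT library assumes that the lone remaining one varies like the other groups. The 3 genes that differed between si-NT and depleted cells became 7 with median-of-ratios scaling, 22 with no filter, 13 with 6 groups and 1 to 10 with 1 library left out, 1 being without 72 h replicate 2. The share of TPM in the 10 most abundant genes (12.5%) was 6.41% without mitochondrially encoded genes. With the replicate number as a block (replicate block) in the si-NT libraries alone, 124 genes were higher and 246 lower. Deviations of same-numbered libraries correlated by -0.32 to 0.41 over 15 pairs of groups, with 3 above 0.1, so the numbers were not taken to pair samples. Of 76 single genes refitted, 3 changed sign, each when 1 si-NT library was left out: HSPA5 (-1.18 to 0.16), KLK2 (-1.23 to 0.021) and KLK3 (-0.35 to 0.73). For the ATF4 targets the median ran from -0.41 to -0.68 over all settings, and the number lower at an unadjusted p under 0.05 was 6 with ERCC scaling. The cause of these changes was not tested.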
